A study of Mus musculus with 6 samples.

Results

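The skeletal muscle contractile and regulatory genes are 36 genes of the sarcomere, of calcium release, of muscle energy supply and of the myogenic transcription factor family. All 36 were present, on 66 of the array's probes, of which 53 were matched through a RefSeq transcript and 13 by gene symbol. After the same naming, the array as a whole held 27595 genes. The study measured RNA of sorted epithelial cells of C57BL/6 mice on single-colour Agilent arrays, in 2 groups of 3 samples. ThymusEC are thymic medullary epithelial cells sorted as Epcam+ UEA1+ CD45- Fluorogold-, where UEA1 is a lectin that binds medullary cells and Fluorogold marks dead cells. ThyroidEC are thyroid epithelial cells sorted as Epcam+ CD45- Fluorogold-. Replicates 1 and 2 of ThymusEC each pooled 6 thymi, replicate 3 pooled 2 thymi, and each ThyroidEC replicate pooled 20 thyroids. Neither group carried a transgene, deletion or treatment per the labels, and the age and sex of the mice are not given in the sources used here.

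Skeletal muscle contracts when myosin heads of the thick filament pull on the actin of the thin filament. Calcium released from the sarcoplasmic reticulum binds troponin C, which moves tropomyosin off the myosin-binding sites of actin. Cells are committed to the muscle programme by the myogenic regulatory factors, basic helix-loop-helix proteins that bind E-boxes, short sites of the form CANNTG, and act together with MEF2 proteins. Medullary thymic epithelial cells are known for transcribing, at low levels and in few cells at a time, many genes that otherwise belong to other tissues, partly under the regulator Aire, and for showing the encoded peptides to developing T cells. Muscle-like (myoid) cells are also a known minor cell type of the thymus.

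The promoters of 5 members are shown first because they set members with different outcomes side by side: Myog, Cacna1s and Myh4 had the largest difference among the members of their roles, Acta1 was not called, and Pygm was higher in thyroid cells. Each is the 250 bases before the RefSeq start site on the GRCm38.p6 build, read 5' to 3' on the strand of the gene. Capitals mark E-boxes and, in Myh4 and Acta1, also matches to the MEF2 and CArG consensus, the latter being the binding site of serum response factor.
Myog (chr1:134289754-134290003, plus strand): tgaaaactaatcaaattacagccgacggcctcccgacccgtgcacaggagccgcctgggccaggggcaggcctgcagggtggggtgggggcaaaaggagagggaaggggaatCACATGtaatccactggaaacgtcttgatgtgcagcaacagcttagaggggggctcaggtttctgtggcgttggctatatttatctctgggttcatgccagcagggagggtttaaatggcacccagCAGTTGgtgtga
Cacna1s (chr1:136052561-136052810, plus strand): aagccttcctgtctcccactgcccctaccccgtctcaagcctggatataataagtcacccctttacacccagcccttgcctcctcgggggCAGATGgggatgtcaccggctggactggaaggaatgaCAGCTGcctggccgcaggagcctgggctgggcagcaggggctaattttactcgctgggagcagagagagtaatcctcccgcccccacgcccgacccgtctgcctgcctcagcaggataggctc
Myh4 (chr11:67237562-67237811, plus strand): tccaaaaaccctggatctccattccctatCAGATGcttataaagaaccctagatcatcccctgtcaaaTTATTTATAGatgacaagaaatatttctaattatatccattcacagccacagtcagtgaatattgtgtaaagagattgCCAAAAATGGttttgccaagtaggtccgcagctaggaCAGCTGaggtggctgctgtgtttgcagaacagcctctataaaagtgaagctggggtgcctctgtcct
Acta1 (chr8:123894776-123895025, minus strand): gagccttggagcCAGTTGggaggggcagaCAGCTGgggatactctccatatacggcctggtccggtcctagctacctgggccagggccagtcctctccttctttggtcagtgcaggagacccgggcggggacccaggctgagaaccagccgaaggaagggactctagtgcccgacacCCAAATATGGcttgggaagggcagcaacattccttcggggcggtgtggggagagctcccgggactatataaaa
Pygm (chr19:6384158-6384407, plus strand): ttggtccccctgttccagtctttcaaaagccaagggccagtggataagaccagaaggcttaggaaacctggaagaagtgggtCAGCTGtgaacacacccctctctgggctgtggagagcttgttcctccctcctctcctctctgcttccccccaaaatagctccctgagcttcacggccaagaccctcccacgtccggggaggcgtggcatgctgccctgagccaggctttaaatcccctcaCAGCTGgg

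All 5 windows held a pair of E-boxes. In Myog they began 138 and 12 bases before the start, with the letters CACATG and CAGTTG. In Cacna1s they began 160 and 123 bases before it, and the nearer one read CAGCTG, the form that myogenic factors are known to bind well. Myh4 had E-boxes at 221 and 67 bases, of which the nearer read CAGCTG, with a MEF2 match at 182 and a CArG match at 104 bases. Acta1 had E-boxes at 238 and 221 bases, the second of them CAGCTG, and a CArG match at 73 bases. Pygm, the member that was higher in thyroid cells by the widest margin, had CAGCTG at both 168 and 8 bases.

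The promoter table listed 34 promoters of 29 members. On either strand, CANNTG occurred in 29 of them (85.3%), against 66.2% of all 32851 promoters listed, and CAGCTG, which is a subset of CANNTG, in 16 of them (47.1%), against 13.0%. A MEF2 match occurred in 5 member promoters (14.7% against 2.92%) and a CArG match in 2 (5.88% against 1.47%). CAGCTG was present for 9 of the 20 genes with a listed promoter that were higher in thymic cells, 3 of the 4 that were not called, 1 of the 2 that were higher in thyroid cells and 1 of the 3 that were not tested. These matches describe letters in the windows. They are not binding sites shown by these data, and members that were not called by the probe used held them as well. Among these, Ttn and Atp2a1 had other probes that were higher in thymic cells.

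Arrays of one group resembled each other closely, with correlations over all probes of 0.994 to 0.995 among thymic and 0.987 to 0.990 among thyroid arrays, against 0.747 to 0.780 between groups. Probes well above background, a flag of the scanner software set at 13 background SDs, made up 78.4% to 81.0% of probes on the thymic and 65.4% to 72.8% on the thyroid arrays. Markers of the labelled cell types lay on the side of their label. All 9 medullary thymic epithelial markers were higher in thymic cells, led by Aire, Fezf2 and Ccl19, and 7 of 8 thyroid follicular markers in thyroid cells, among them Tg and Tshr. Endothelial cells are not what an Epcam gate selects, yet their markers were present in the thyroid samples: all 8 were higher there, led by Emcn, Kdr and Tie1, and their summed level was 8.29 to 8.82 on the thyroid and -0.10 to 0.04 on the thymic arrays.

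Most of the muscle genes were higher in the thymic cells. By the probe used, 18 of the 33 tested were well above background on all 3 thyroid arrays too, 9 on 1 or 2 of them and 6 on none. Levels are given throughout as log2 of the processed signal relative to the array's 75th percentile, so a level of 0 equals that percentile, and a difference of 1 is a 2-fold change. Since signals of different probes are not comparable, levels are compared between groups for 1 probe and not between genes. Of the 36 members, 33 had a probe that was well above background on each of the 3 arrays of one or both groups and were tested. In limma with Benjamini-Hochberg adjustment over 21394 genes, 26 of the 33 were higher in thymic cells, where 39.2% of all genes tested were, and 2 were higher in thyroid cells, where 30.6% were. The remaining 5 were not called. A fold of 8 or more together with the call was reached by 17 members, against 13.7% of all genes. With dim thyroid arrays at their floor (explained next), 15 members were past 8-fold. The share of all genes at that floor was not computed, and the 13.7% is not its counterpart. The lowest thymic array lay above the highest thyroid array for 27 members, against 42.0% of all genes. The filter works in favour of such counts, since a member can be tested because it is bright in 1 group alone. With the slide as a block the counts were 27 and 2. Slide 2 held thyroid arrays only, so those differences rest on the 3 thymic arrays and the 1 thyroid array of slide 1. Slide 1 alone gives the same differences, with that thyroid array assumed to vary like the thymic ones. Neither setting uses all 6 arrays for the group difference.

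The median difference of the 33 members was 3.09, beside 0.10 for all genes tested. On the thymic arrays the members' median level was -1.19, -1.11 and -1.20, and in thyroid cells it was -4.74, -4.42 and -4.41. For 14 of the 26 members higher in thymic cells, the probe was not well above background on 1 or more thyroid arrays, and for 6 of them on none. Folds of such members are given as "at least", with each dim thyroid array set to the higher of the probe's own signal and the lowest signal well above background on that array. With these values in place of the fitted ones, the median difference of the members was 2.75. Sizes depend on the background correction: normexp, which adds an offset of 50 to every signal, gave a smaller difference for all 26 members, lower by over 1.5 times in fold for 21, and below the stated bound for all 14, so that "at least" holds for the processed signal alone. Median differences of member groups below are fitted ones, with the value at the bounds beside them where it differs. Centring the arrays on their median in place of the 75th percentile shifted the difference of all genes by -0.53, and quantile normalization by -0.18. Median centring put 28.5% of all genes on the thymic and 51.6% on the thyroid side, and the members' counts were 24 and 3. Samples are bulk RNA, so fewer cells of a type and less RNA per cell cannot be told apart. The p-values set the group difference against the spread of pooled samples within each group, and the number of these 6 samples limits the precision.

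**Figure D1:**
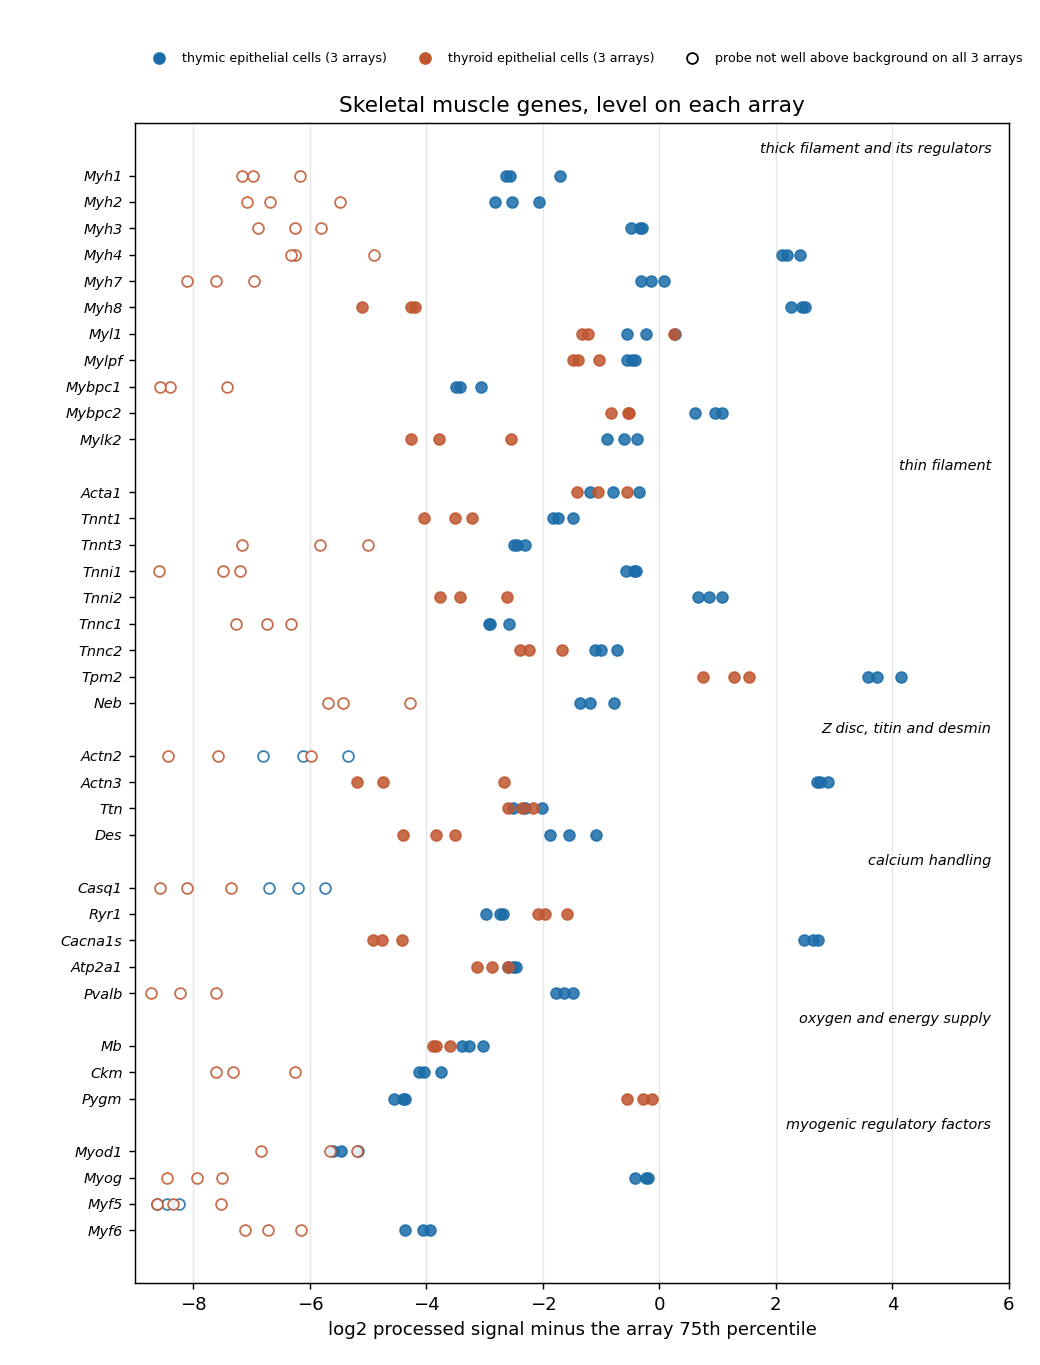
Level of each of the 36 members on each array (log2 processed signal minus the 75th percentile of the array), grouped by role; blue points are the 3 thymic and orange points the 3 thyroid arrays, and open points belong to a group with 1 or more arrays not well above background. Thymic and thyroid points are far apart for Myog, Myh4 and Cacna1s, overlap for Acta1, Myl1, Myod1 and Ttn, and lie in the reverse order for Pygm and Ryr1.

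The thick filament and its regulators were higher in thymic cells for 10 of 11 tested members, with a median difference of 4.48 (3.35 at the bounds). Myh4, the heavy chain of the fastest fibres, was at 2.41, 2.11 and 2.20 on the thymic arrays and at -6.25, -6.33 and -4.90 on the thyroid arrays. The groups lay far apart, and only 1 thyroid array was above background. The fitted difference was 8.07 (SE 0.38, adjusted p = 4.05e-06), or at least 215-fold (46.5-fold with normexp). Myh7, the slow and cardiac heavy chain, was at -0.14, -0.32 and 0.07 against -7.62, -6.97 and -8.12. No thyroid array was above background for Myh7. Its fold in favour of thymic cells was at least 61.4 (adjusted p = 1.91e-06), or 11.3 with normexp.

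The developmental heavy chains were both higher in thymic cells. Myh8, the perinatal form, was at 2.44, 2.26 and 2.49 on the thymic arrays and at -4.26, -5.11 and -4.20 on the thyroid arrays. Every array was above background, and the difference was 6.92 (SE 0.25, 121-fold, or 41.1-fold with normexp). Myh3, the embryonic form, was at -0.34, -0.49 and -0.29 against -6.90, -6.26 and -5.81. That is at least 43.4-fold (adjusted p = 3.29e-06), or 8.61-fold with normexp. The adult fast forms Myh1 and Myh2 were at least 13.5-fold and at least 10.2-fold higher (2.94-fold and 2.27-fold with normexp). These 5 heavy chain genes, Myh1, Myh2, Myh3, Myh4 and Myh8, are neighbours on chromosome 11. The longest run of identical bases between probes of different members was 19 of 60 bases, between a Myh1 and the Myh8 probe, and the next was 13. Matches of probes to transcripts of other myosins were not tested.

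Light chains and myosin-binding proteins varied more. Mybpc1, the slow myosin-binding protein C, was higher in thymic cells by at least 6.71-fold (2.02-fold with normexp) with no thyroid array above background, whereas its fast relative Mybpc2 differed by 1.52 (SE 0.16, 2.86-fold) with all 6 arrays above it. Mylk2, the kinase of the skeletal regulatory light chain, was 7.52-fold higher, with thyroid levels from -4.26 to -2.55. Mylpf, the fast regulatory light chain, differed by 0.83 (SE 0.15, adjusted p = 0.00210), and the call was lost with median centring (0.29, adjusted p = 0.127) and with the deposited value table. Myl1, the alkali light chain, was at -0.55, -0.24 and 0.26 on the thymic and at -1.23, 0.26 and -1.34 on the thyroid arrays. The groups overlapped through thyroid replicate 2, and the difference of 0.59 (SE 0.45) had an adjusted p of 0.276. Without that replicate it was 1.11, with an adjusted p of 0.00871. With the slide as a block it was 1.06, with an adjusted p of 0.206. Slide 1 alone gives the same 1.06, since both rest on thyroid replicate 1.

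Of the 9 thin filament members, 8 were higher in thymic cells, with a median difference of 3.59 (3.00 at the bounds). Tnni1, the slow fibre troponin I that holds the filament inhibited, was at -0.43, -0.57 and -0.41 on the thymic arrays and at -7.19, -7.49 and -8.59 on the thyroid arrays. No thyroid array was above background, and the fold was at least 48.5 (adjusted p = 4.14e-06), or 8.55 with normexp. Tnni2, its fast counterpart, was at 0.86, 0.67 and 1.07 against -3.42, -3.76 and -2.62, which is 17.5-fold. Troponin C, the calcium sensor, was at least 9.11-fold higher for the slow form Tnnc1 and 2.23-fold higher for the fast form Tnnc2. Troponin T, which anchors the complex to tropomyosin, was 3.76-fold higher for the slow form Tnnt1 and at least 8.02-fold higher for the fast form Tnnt3. With normexp, Tnnc1 and Tnnt3 were each 2.32-fold higher.

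Neb, nebulin, the ruler of thin filament length, was higher in thymic cells by at least 15.2-fold (4.75-fold with normexp). Tpm2, beta-tropomyosin, was above background in both cell types, at 3.73, 4.15 and 3.57 on the thymic and 1.53, 1.29 and 0.74 on the thyroid arrays, a 6.19-fold difference. Tpm2 is also known to be made by smooth muscle. Acta1, skeletal alpha-actin, the main actin of the thin filament, was the member of the group that was not called. It was at -0.80, -0.35 and -1.20 on the thymic and at -0.55, -1.41 and -1.05 on the thyroid arrays. The groups overlapped, the difference was 0.22 (SE 0.29, adjusted p = 0.523), and its sign turned with median centring (-0.31), with the deposited table (-0.30) and with the slide as a block (-0.24).

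Among the members that hold the sarcomere together, Actn3, the alpha-actinin of fast fibre Z discs, was at 2.77, 2.89 and 2.71 on the thymic arrays and at -4.74, -2.66 and -5.19 on the thyroid arrays. The thymic arrays lay close together, while thyroid replicate 2 stood above the other thyroid arrays, with the largest spread of any tested member (SD 1.35, n = 3). All arrays were above background, and the difference of 6.99 (SE 0.62, adjusted p = 6.77e-05) is 127-fold, or 48.4-fold with normexp. Actn2, the alpha-actinin of all striated fibres and of heart, was above background on 2 thymic and no thyroid arrays and was not tested. Des, desmin, the intermediate filament of muscle, was 5.32-fold higher in thymic cells.

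Calcium handling members were divided. Cacna1s, the voltage sensor that couples the membrane to calcium release, was at 2.49, 2.64 and 2.72 on the thymic and at -4.77, -4.42 and -4.91 on the thyroid arrays. With all arrays above background and little spread, the difference was 7.32 (SE 0.16), 160-fold or, with normexp, 44.1-fold, and its adjusted p of 3.43e-07 was the lowest of the members. Pvalb, parvalbumin, the calcium buffer of fast fibres, was at -1.63, -1.78 and -1.48 against -8.22, -7.62 and -8.72. Pvalb was at least 21.7-fold higher (4.79-fold with normexp), with no thyroid array above background. Casq1, the calcium store protein calsequestrin, was above background on 1 thymic array alone and was not tested. Atp2a1, the calcium pump of fast fibres, differed by 0.35 (SE 0.15, adjusted p = 0.0818) by its brighter probe. The sign turned with median centring (-0.19), the deposited table (-0.18) and quantile normalization (-0.16). On slide 1 alone, with 1 thyroid array, the difference was 0.60, and without thyroid replicate 2 it was 0.48 (adjusted p = 0.0191). Ryr1, the calcium release channel, was higher in thyroid cells by its brightest probe, which disagreed with its other probes as described further on.

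Of the members for oxygen and energy supply, Ckm, muscle creatine kinase, was at -3.74, -4.14 and -4.04 on the thymic arrays and at -7.31, -7.62 and -6.26 on the thyroid arrays, at least 3.99-fold higher (1.58-fold with normexp). Mb, myoglobin, the oxygen store, differed by 0.55 (SE 0.14, adjusted p = 0.0127). That call for Mb was lost with normexp background correction (0.20), median centring (0.02) and the deposited table (0.03), and the sign turned with quantile normalization (-0.18). Pygm, the muscle glycogen phosphorylase that frees glucose units from glycogen, went the other way. It was at -4.55, -4.37 and -4.40 on the thymic and at -0.55, -0.29 and -0.13 on the thyroid arrays. Every thyroid array lay above every thymic array, and Pygm was 17.4-fold higher in thyroid cells, or 6.36-fold with normexp (difference -4.12, SE 0.14, adjusted p = 1.18e-06).

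Of the 4 myogenic regulatory factors, 2 were higher in thymic cells, 1 was not called and 1 was not tested. Myog, myogenin, which drives the terminal differentiation of myoblasts, was at -0.20, -0.43 and -0.23 on the thymic arrays and at -7.94, -7.51 and -8.46 on the thyroid arrays. No thyroid array was above background, and Myog was higher in thymic cells by at least 55.1-fold (difference 7.69, SE 0.24, adjusted p = 8.51e-07). With normexp, Myog was 9.87-fold higher. Myf6, also called MRF4, which is known to act late in differentiation and in mature fibres, was at -4.37, -4.06 and -3.94 against -6.72, -6.16 and -7.12. It was above background on the thymic arrays and on no thyroid array, at least 3.85-fold higher (adjusted p = 0.000131), and the call was lost with normexp background correction (adjusted p = 0.0575).

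The factors that act earlier, in the commitment of myoblasts, were not called or not detected. Myod1 was at -5.46, -5.60 and -5.17 on the thymic and at -5.19, -6.84 and -5.65 on the thyroid arrays. The groups overlapped, 2 thyroid arrays were above background, and the difference was 0.48 (SE 0.41, adjusted p = 0.327), with its sign turned under quantile normalization (-0.84), normexp (-0.09), median centring (-0.05), the deposited table (-0.04) and the slide as a block (-0.23). Myf5 was not above background on any of the 6 arrays, with levels of -8.63 to -8.25 on the thymic and -8.63 to -7.52 on the thyroid arrays. Myf5 and Myf6 are neighbours: on the mm8 build their probes lie at chr10:106887028-106887087 and chr10:106897291-106897350, 10204 bases apart, on the minus strand.

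**Figure D2:**
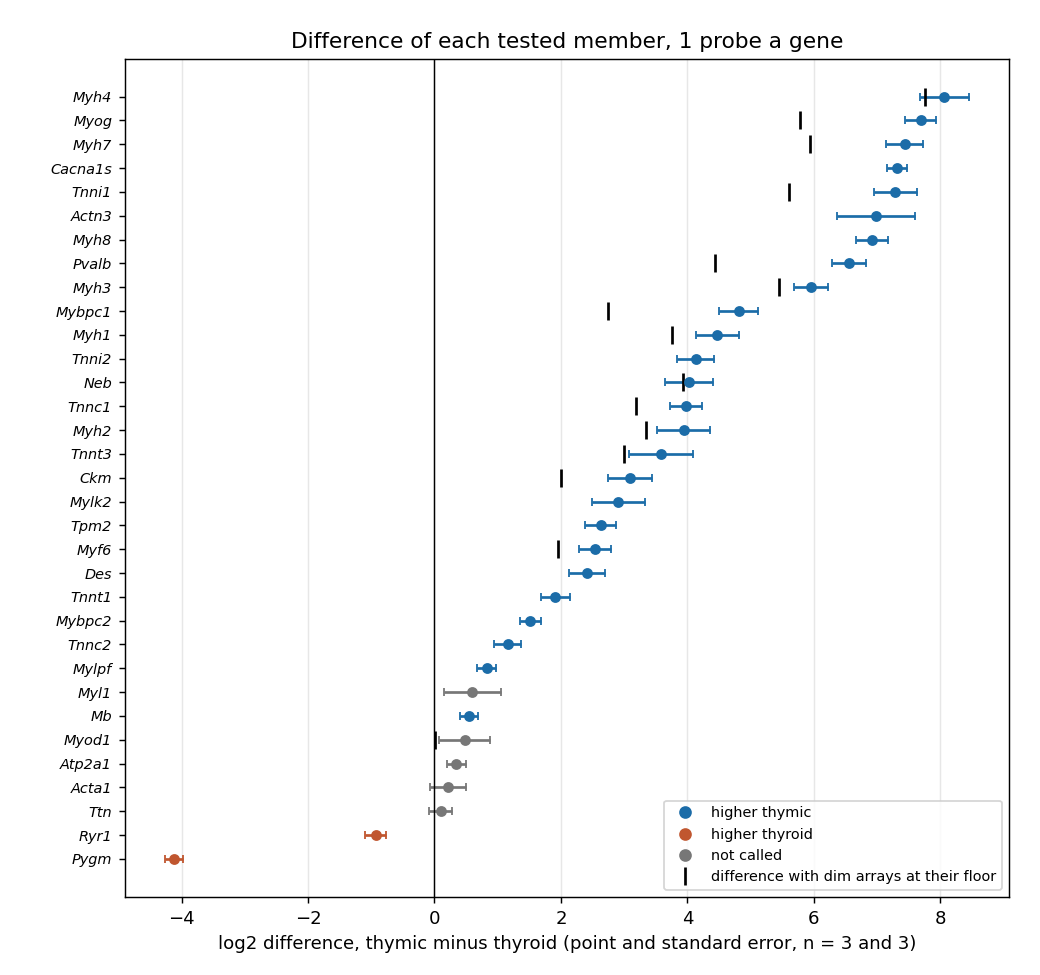
Difference between thymic and thyroid cells of each of the 33 tested members (log2, point and standard error from limma, 3 arrays a group), coloured by call; black ticks give the difference with dim thyroid arrays set to their floor. Values run from -4.12 for Pygm to 8.07 for Myh4, and the ticks lie about 2 to the left of the points for Pvalb and Mybpc1, which no thyroid array showed above background.

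Fast, slow and developmental isoforms were all represented. The fast-fibre members tested were Myh1, Myh2, Myh4, Mylpf, Tnnt3, Tnni2, Tnnc2, Mybpc2, Actn3, Atp2a1 and Pvalb. Of these 11, 10 were higher in thymic cells, with a median difference of 3.94 (3.35 at the bounds). Myl1, which was not called, and Mybpc1, which was higher in thymic cells, were placed in none of the classes. The slow-fibre members Myh7, Tnnt1, Tnni1 and Tnnc1 were higher in 4 of 4 cases, with a median of 5.63 (4.39 at the bounds), and the developmental heavy chains in 2 of 2, with a median of 6.44 (6.18 at the bounds). The counts in each class stand beside the 39.2% of all genes, and the classes were not tested against each other. Members of the same complex differed widely in size of difference, as Tnni1 (at least 5.60) and Tnnc2 (1.16) show.

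Thymic replicates varied less than thyroid replicates. Across the tested members the SD over the 3 thymic arrays ranged from 0.06 to 0.51, with a median of 0.20, and that over the 3 thyroid arrays from 0.16 to 1.35, with a median of 0.51. Of the thymic arrays, replicate 3, the pool of 2 thymi, was the highest for 20 of the 33 members, replicate 2 for 9 and replicate 1 for 4. Among the 18 members with a chosen probe above background on all 3 thyroid arrays, thyroid replicate 1 was the highest for 4, replicate 2 for 8 and replicate 3 for 6. The same shares over all genes were not computed, so these orders cannot be called particular to the members.

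Probes of the same gene did not always give the same answer. Of the 55 tested probes of members, 48 were higher in thymic cells, against 37.2% of all probes tested, 2 were higher in thyroid cells and 5 were not called. Of all 66 probes, 20 were above background on all 3 thymic and on no thyroid arrays, against 7.75% of the probes on the array. Of the 12 members with several tested probes, 9 had probes with the same call, and Ttn, Ryr1 and Atp2a1 did not.

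Ttn, titin, the spring that spans from Z disc to M line, had 9 probes between positions 76504823 and 76766006 of chromosome 2 (mm8), on the minus strand. The brightest one, designed from the cDNA clone AK010153, represented the gene and was flat: -2.52, -2.30 and -2.01 on the thymic and -2.59, -2.17 and -2.37 on the thyroid arrays, a difference of 0.10 (SE 0.18, adjusted p = 0.640). Its sign turned with median centring, where it was called in favour of thyroid cells (-0.43, adjusted p = 0.0478), and with the deposited table (-0.42), quantile normalization (-0.31) and normexp (-0.03). The other 8 Ttn probes were matched to its RefSeq transcript, and 7 of them were tested and higher in thymic cells, by fitted differences of 3.09 to 7.29, or 1.32 to 5.24 at the bounds. Of the 8 tested probes, 5 were on no thyroid array above background. With the median over the tested Ttn probes on each array, the gene was called higher in thymic cells (fitted difference 5.27, adjusted p = 4.26e-07). The median of the 8 probe differences was 3.00 at the bounds.

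Ryr1 showed the same split with the sign reversed. Its brightest probe, from the cDNA clone AK042482, was at -2.98, -2.69 and -2.74 on the thymic and at -1.96, -1.58 and -2.08 on the thyroid arrays, so that it was higher in thyroid cells (difference -0.93, SE 0.17, adjusted p = 0.00212). Both other probes, matched to its RefSeq transcript, were above background on the thymic arrays only and were at least 3.21-fold and at least 2.58-fold higher in thymic cells (fitted differences 3.48, SE 0.29, and 3.53, SE 0.25). Taking the median over the probes, or RefSeq-matched probes alone, gave 3.48 for Ryr1. Atp2a1 had a second probe that was higher in thymic cells by 4.30 (SE 0.26, at least 4.86-fold), and the median over both was 2.32. With the median over the probes of each gene, 29 members were on the thymic side and 1, Pygm, on the thyroid side, beside 40.2% and 30.1% of all genes.

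The remaining members with several tested probes had the same call for each, with different sizes, and some of their untested probes were at or near background. Myh1 differed by 4.48 with the probe used and by 0.55 with a second one, and its remaining probe is placed on the minus strand in the array files, opposite to the gene, and was above background on none of the 6 arrays. Of the 4 Myh8 probes, the one with the highest coordinates was bright and the other 3 were not tested; another one matched to the RefSeq transcript was at background in both groups, with means of -7.90 and -7.93. For Neb, 4 probes spread along the gene gave fitted differences of 3.71 to 4.09, or 2.10 to 3.93 at the bounds. A second Cacna1s probe was at 1.27 on thyroid replicate 2 and between -8.50 and -6.04 on the other 5 arrays, so that it was well above background on 1 array of each group and was not tested. The bright Cacna1s probe was at -4.42 on the same thyroid array.

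**Figure D3:**
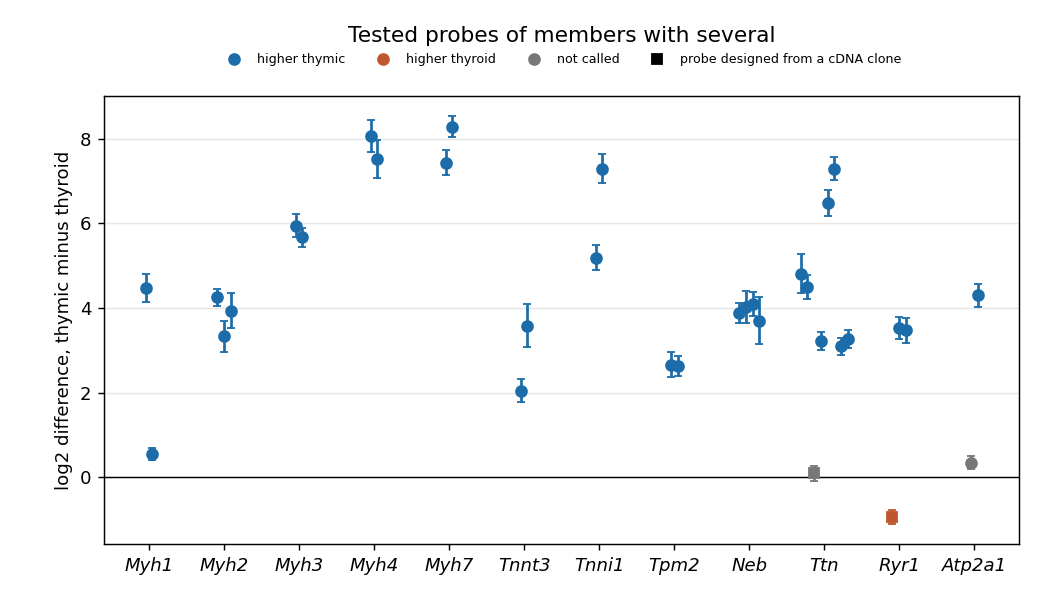
Difference between thymic and thyroid cells (log2, with standard error) of every tested probe for the 12 members that had several; circles are probes designed from a transcript, squares those from a cDNA clone, and colours give the call. For Ttn and Ryr1 the square lies near or below 0 while the circles lie between 3.09 and 7.29.

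Other genes of muscle lay closer to the shares of all genes. Of 127 genes in 5 lists, 117 were tested, and 58 (49.6%) lay higher in the thymic group, 38 (32.5%) in the thyroid group, beside 39.2% and 30.6% of all genes; the median difference was 0.59, beside 0.10. Genes are named by their fitted difference, which for a gene dim in 1 group is not a measured size, so that the order of the named genes is not a ranking by fold. Other sarcomere and Z disc genes were higher in thymic cells for 16 of 29 (55.2%) and lower for 7 (24.1%). Those named are Smtnl1 (at least 252-fold), Myot, the Z disc protein myotilin (at least 22.8-fold), and Myl2, the slow and cardiac regulatory light chain (at least 11.6-fold). Lmod2 (at least 5.42-fold), Fhl1 (4.91-fold) and Myom1, an M-band protein (3.79-fold), were higher in thyroid cells.

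Other excitation and calcium genes were higher in thymic cells for 9 of 17 (52.9%) and lower for 4 (23.5%). Trdn, triadin, which ties the release channel to calsequestrin, was at least 44.6-fold higher, Sln, the pump inhibitor sarcolipin, at least 33.7-fold, and Srl, sarcalumenin, 14.8-fold. The cardiac calsequestrin Casq2 (6.23-fold), Hrc (4.17-fold) and Jph2 (3.55-fold) were higher in thyroid cells. Muscle metabolism genes were divided, with 9 of 16 (56.2%) higher in the thymic and 7 (43.8%) in the thyroid group. Art1, Pgam2 and Cox8b are named for the former, and Ppp1r3c (13.4-fold), Phkg1 (at least 5.05-fold) and Cox6a2 (3.82-fold) for the latter.

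Other myogenic regulators and fusion genes were higher in thymic cells for 18 of 38 (47.4%) and lower for 11 (28.9%), near the shares of all genes. Trim63, the muscle ubiquitin ligase MuRF1 (at least 19.9-fold), Eya4, a transcriptional cofactor (62.7-fold), and Mstn, myostatin (at least 12.2-fold), were named for thymic cells. Jam2 (136-fold), the myosin chaperone Unc45b (85.5-fold) and Mef2c (66.6-fold) were higher in thyroid cells. The last of these is known to be made by endothelial cells as well, as is Jam2; the endothelial markers lay on the same side, and their part in these differences was not tested. Dystrophin complex and sarcolemma genes were higher in thymic cells for 6 of 17 (35.3%), among them Capn3 and Ank1, and in thyroid cells for 9 (52.9%), among them Dysf and Sgce.

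Among markers of other cell types that make muscle proteins, the cardiac ones lay on the members' side, while smooth muscle markers were divided. All 11 cardiac markers were higher in thymic cells, with a summed level (log2 of the summed signals) of 3.79 to 4.22 on the thymic and -1.34 to -1.03 on the thyroid arrays. Tnnt2, cardiac troponin T, was at least 234-fold higher, Myl7, the atrial light chain, at least 273-fold and Mybpc3 59.4-fold. The cardiac heavy chain Myh6 was above background on 3 thymic and 0 thyroid arrays. Satellite cell and myoblast markers were higher in thymic cells for 4 of 6 tested (66.7%, beside 39.2% of all genes). Pax3, Pax7 and Cdh15 led these, while Myf5 was at background on all 6 arrays. The summed level of the list was -0.39 to -0.15 against -1.44 to -1.16. On the thyroid arrays that sum was mostly Itga7, which was not called and was at -1.59, -1.93 and -2.03 there.

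Smooth muscle markers were higher in thymic cells for 4 of 10 (40.0%), led by Des, Cnn1 and Tagln, and in thyroid cells for 4 (40.0%), led by Smtn, Myocd and Acta2. Their summed level overlapped between the groups, at 5.59 to 6.10 on the thymic and 5.18 to 5.71 on the thyroid arrays. Fibroblast markers were higher in thymic cells for 2 of 7 (Fbln1 and Dcn), with overlapping sums of 4.42 to 5.22 and 2.93 to 4.54. Blood cell markers were higher in thymic cells for 8 of 9, led by Lyz2, Itgam and Ptprc. Hbb-bt, a haemoglobin chain, was higher in thyroid cells. Their sums, 6.63 to 6.71 on the thymic and 5.38 to 5.80 on the thyroid arrays, were carried by different genes and are not comparable. Lyz2 was at 6.64, 6.52 and 6.63 on the thymic arrays, and Hbb-bt at 5.58, 5.76 and 5.36 on the thyroid arrays. Schwann and nerve markers were higher in thymic cells for 1 of 6 (Mbp) and in thyroid cells for 2, among them S100b. The part of any of these cell types in the differences of the muscle members was not tested.

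**Figure D4:**
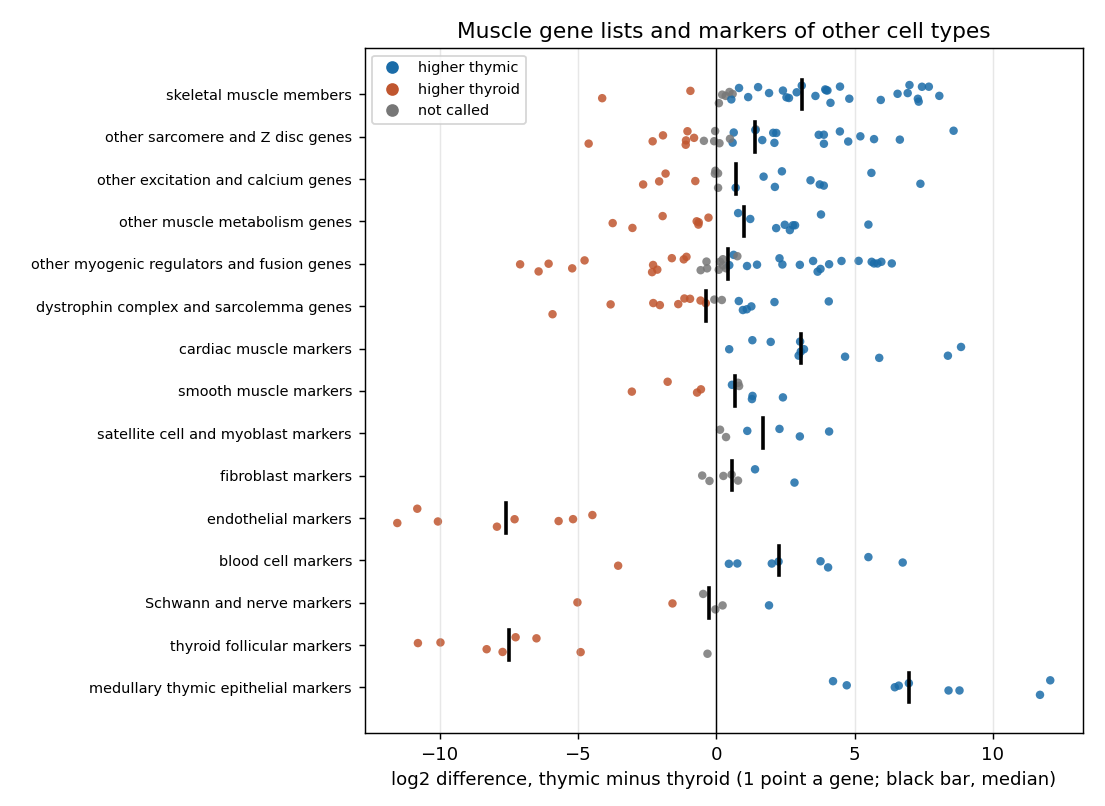
Difference between thymic and thyroid cells (log2) of each tested gene in the muscle lists and in the marker lists of other cell types, 1 point a gene, coloured by call, with the median as a black bar. The medians are 3.09 for the skeletal muscle members, 3.06 for cardiac markers, 0.68 for smooth muscle markers and -7.61 for endothelial markers.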

How the data were processed

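RNA carried the dye Cy3; the labels' protocols name Trizol for thymus and thyroid, or extraction by a company, without saying which samples had which. Per the file headers, arrays were read with Agilent Feature Extraction 10.5.1.1, which deposited each spot's brightness as an intensity (processed signal, background-subtracted), with mm8 coordinates. The authors also deposited a value table, a linear ratio: the processed signal over each array's median (values agreed to within 0.99996 to 1.00004). Control and outlier spots were left out and spots of a probe averaged. Values were scaled on log2 by subtracting the 75th percentile of the array. Genes were named through RefSeq (GRCm38.p6): 24490 probes matched by accession, 6234 by symbol, 2391 by older symbol, and 8059 kept the file's name. Testing needed the well-above-background flag on all 3 arrays of a group, and the tested probe of highest mean stood for a gene. Groups were tested in limma 3.58.1 (R 4.3.3; lmFit, eBayes, two-sided, no covariate) at an adjusted p of 0.05. Slide 1 held all thymic arrays and thyroid replicate 1. Members and lists were chosen with earlier results of these data known. All members are accounted for, and up to 3 called genes per direction are named in each other list, by largest difference; some that this rule takes are not reported here. Alternatives were normexp (offset 50), quantile, median centring, the deposited table, no filter, only probes detected on all 6 arrays, the median over probes, the slide or replicate number as a block, slide 1 alone, trended and robust variances and leaving out each replicate; scaling by probes above background on all 6 arrays and RefSeq-matched probes alone were added after seeing the data. The fit was tested on simulated data. Plots used Python 3.11.15 and matplotlib 3.10.9.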

Additional observations from a re-analysis of the deposited data

How the results depend on the processing

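The count of 26 members higher in thymic cells was 24 to 29 of 33 under the alternatives that tested the same members, 27 of 36 with no filter, 26 of 31 with RefSeq-matched probes alone, and 12 of 18 when only probes above background on all 6 arrays were tested, a filter that removes members dim on any thyroid array. Beside these counts, 28.5% to 40.3% of all genes were higher in thymic cells under the alternatives that tested the same genes. That share was 31.3% with no filter, 38.6% with RefSeq-matched probes alone and 29.4% with the filter on all 6 arrays. The count of 2 members higher in thyroid cells was 1 with the median over probes and 1 with RefSeq-matched probes, since Ryr1 then differed by 3.48 in each. It was 3 with median centring. The shares of all genes on the thyroid side in these settings were 30.1%, 33.9% and 51.6%. The median difference of 3.09 was 1.22 with normexp, 2.76 with quantile normalization and 2.56 with median centring. It was 2.57 with the deposited table, 2.77 with no filter and 1.34 with the filter on all 6 arrays. When 1 replicate was left out, the median was 2.97 to 3.49. With the slide as a block and on slide 1 alone it was 3.34, the same estimate, since slide 2 held thyroid arrays only. Signs turned for Ttn, by its cDNA probe (normexp -0.031, quantile -0.31, median centring -0.43, deposited table -0.42, and -0.037 to 0.22 when 1 replicate was left out), Myod1 (normexp -0.088, quantile -0.84, median centring -0.05, deposited table -0.044, slide as a block -0.23, slide 1 alone -0.23), Acta1 (median centring -0.31, deposited table -0.30, slide as a block -0.24, slide 1 alone -0.24), Atp2a1 (quantile -0.16, median centring -0.19, deposited table -0.18) and Mb (quantile -0.18); the cause was not tested. With the replicate number as a block (replicate block), the counts were 26 and 2 and the median 3.09. Same-numbered arrays did not deviate together (correlations of 0.0066, -0.067 and -0.054). That alone cannot show whether samples of the same number were collected as pairs. Signal over background limits the 14 thymic-high members that were dim on a thyroid array, whose differences are bounds.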
